A study of Bos taurus with 2 samples.

Results

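Tubulins, the proteins that help tubulin to fold and the ligases that mark it were taken as every gene name on the bovine array that began with TUBA, TUBB, TUBG, TUBD, TUBE or TTLL, or that was TBCA, TBCB, TBCC, TBCD, TBCE or TTL. These were 41 of the 32429 gene names, read by 93 of the 51282 probes and 103 of the 61657 spots that were not controls. The rule uses names alone, not signals. The crossbred sample was RNA pooled in equal amounts from the right testes of 3 Holstein Friesian crossbred bulls with 50 to 75% exotic inheritance. The Zebu sample was the same kind of pool from 3 Tharparkar bulls. All the bulls were 24 months old, their testes were taken by unilateral castration, and no treatment separated the groups. Cy3-labelled RNA of each pool went onto 1 array, so the differences below were not checked in replicates, none has a p-value, and precision is limited by there being only 2 arrays. The age, the breeds and the pooling are those of the study's methods.

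Microtubules are hollow tubes built from pairs of alpha and beta tubulin. Gamma tubulin, held in a ring by gamma-complex proteins, starts new microtubules, and delta and epsilon tubulin are needed for the triplet microtubules of centrioles. New alpha and beta tubulins are released from a chaperonin and paired by the folding cofactors TBCA to TBCE. Enzymes of the TTL family then mark the finished tubes. TTL puts back the last tyrosine of alpha tubulin, and many of the TTLL enzymes attach chains of glutamate or glycine to tubulin tails. In the testis, microtubules form the meiotic spindle, the manchette that shapes the head of the elongating spermatid, and the axoneme of the sperm tail, whose tubulin carries many of these marks.

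Values are the log2 of the processed signal minus the 75th percentile of the same array, and a difference is crossbred minus Zebu on that log2 scale. A gene was read from its brightest probe. It was detected if either array had that probe well above background, and was called higher or lower at a difference of 1.5 or more in size, which is 2.83-fold. The 5960 probes with more than 1 spot, and every spot well above background on both arrays, gave an SD of 0.33 for a difference. It was taken between spots of the same probe, covers spotting and scanning only, and leaves dim probes out. Over the 24758 gene names detected, the median difference was -0.05. Spots well above background made up 72.0% of the crossbred array and 74.3% of the Zebu array. A patch of 544 spots was dark on the crossbred array and one of 105 spots was bright, with median differences of -1.37 and 1.29. None of the 103 spots of the tubulin system lay in either patch, and none was marked as an outlier. The median difference of the spots around each of them lay between -0.61 and 0.97.

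Many tubulin genes are close copies, so probes for different genes can be nearly the same, and the probes printed here show how near. Each is 60 bases, in the array's own orientation, at its place in HGSC Btau_3.1, the build named in the files. Capitals mark the bases that differ when the pair is laid side by side without gaps, shifted by a few bases, and the ends that do not overlap are in lower case. TUBB and TUBB4B share 52 of 58 overlapping bases, the closest pair by count, and the differences were 0.68 and 0.79.
TUBB, chr23:28221272-28221331, minus strand: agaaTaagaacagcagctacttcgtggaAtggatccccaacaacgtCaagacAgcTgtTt
TUBB4B, chrUn.004.135:277709-277768, minus strand: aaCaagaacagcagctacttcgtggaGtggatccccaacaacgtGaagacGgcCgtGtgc

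Among 4195 pairs of probes from different genes of the list, 8 had 40 or more identical bases. Some probes are in several of the 8 pairs, and the longest run of bases shared within a pair went from 11 to 25. In all 8 pairs both differences had the same sign. The share of pairs with the same sign among all 4195 was not counted. How much of the signal of such a probe came from the other gene was not tested. Whether the value of a probe in these pairs is that of its own gene alone is thus not known. In all, 11 probes of the list shared a run of 20 bases or more with a probe of another gene name.

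Of the 41 genes, 40 were detected. 5 of the 40 were higher in crossbred testis and none was lower, against 7.25% higher and 2.98% lower among all detected gene names. The counts are small and nothing particular to the list is read from them. Among names well above background on both arrays, 4 were higher and none lower, against 6.43% and 1.75%. At a difference of 1, 10 were higher and 3 lower, against 12.9% and 8.92%. At a linear 1.5-fold, 14 were higher and 9 lower, against 21.5% and 22.3%. The 5 were TBCD, TUBA8, TTLL2, TTLL3 and TUBA1D. TUBA1D was not well above background in Zebu testis and is in the count only by its measured signals there, since at its bound it was 0.61 higher, short of the threshold. TBCD is in the count only by 1 of its 2 probes. The median difference of the 40 genes was 0.39, with 24 above 0 and 16 below, where 46.9% of all detected names lay above 0. The medians were 0.51 for 15 alpha and beta tubulins, -0.64 for 9 gamma, delta and epsilon tubulins with gamma-complex proteins, -0.00 for 5 folding cofactors and 0.76 for 11 ligases. The ranges of the classes overlap, and no test between classes was possible with 1 array per group.

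**Figure D1:**
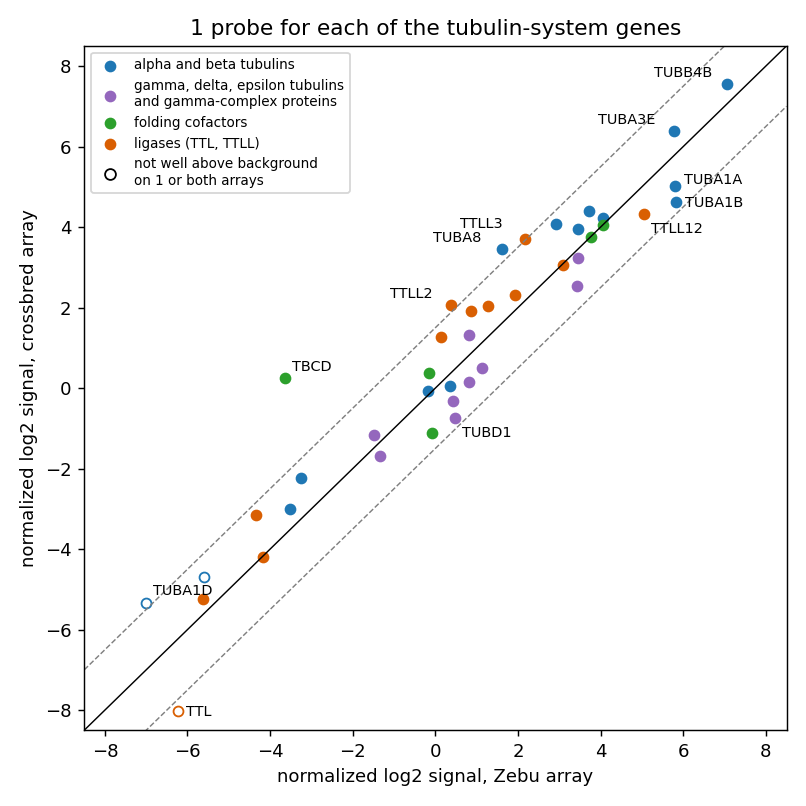
Normalized log2 signal of the probe that stands for each of the 41 genes, on the Zebu array (horizontal axis) and the crossbred array (vertical axis), coloured by class. The solid line marks equal signal and the dashed lines a difference of 1.5. TBCD stands farthest from the line, at -3.65 and 0.25, no gene well above background lies beyond the lower dashed line, and most gamma, delta and epsilon genes lie below the solid line.

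Of 8 detected alpha tubulins, 6 lay above 0 and 2, TUBA1A and TUBA1B, lay below, where 46.9% of all detected names lay above 0. Only TUBA8 passed the threshold with both arrays well above background. TUBA1D and TUBAL3 were dim in Zebu testis, and the probes of TUBA1C gave both signs. TUBA8, an isotype known from muscle and testis, read 3.46 in crossbred and 1.61 in Zebu testis, a difference of 1.85 or 3.61-fold. It had 1 probe, so no other part of its transcript was read. TUBA1D read -5.33 in crossbred testis. Its Zebu signal, -7.00, was not well above background, and set against the dimmest signal that was, TUBA1D was at least 1.53-fold higher in the crossbred sample. With normexp background correction that bound was 0.38 on the log2 scale. TUBA4A had 2 probes. The brighter, starting at base 648 of the transcript, read 3.96 and 3.45, a difference of 0.51. The other, starting at base 1394, read 2.75 and 1.12, a difference of 1.63, so only the probe nearer the 3′ end passed the threshold.

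TUBA3E belongs to the alpha tubulins made mainly in the testis. Its brightest probe read 6.38 in crossbred and 5.77 in Zebu testis, which is 0.61 higher, and the other probes differed by 0.37 and 0.51. All 3 probes lay above 0 and none passed the threshold. TUBA3E and TUBAL3 are named after their values were seen. TUBAL3 read -4.70 and -5.61, with 1 of its 2 Zebu spots not well above background. The spot that was well above background on both arrays gave 0.50, and normexp background correction gave 0.37 for the gene, so no fold is stated. Its other probe was not well above background on either array.

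TUBA1A, best known from the nervous system, and TUBA1B, a broadly expressed alpha tubulin, lay on the other side. They are named here after their values were seen. TUBA1A read 5.02 in crossbred and 5.80 in Zebu testis, a difference of -0.78. TUBA1B read 4.62 and 5.84, a difference of -1.21. All 8 probes of the pair were lower in crossbred testis, between -1.40 and -0.59, and none reached the threshold. One probe under the name TUBA1A, with a difference of -0.88, is placed by the file between probes of TUBA1B. Another TUBA1A probe, at -0.71, shares 47 of 59 overlapping bases with a TUBA1B probe at -0.74. The 8 probes thus do not amount to 2 separate sets.

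TUBA1C, the neighbour of both on chromosome 5, gave no single direction. Its probes differed by 0.60 at base 71, -0.54 at base 728, -0.28 at base 964 and 1.16 at base 1487 of the transcript. The last is the brightest and read 4.07 in crossbred and 2.91 in Zebu testis. The probe at base 728, which read 1.27 and 1.81, is one of those with a close copy, a probe of TUBA1B that differed by -0.59. The class median without the probes of TUBA1A, TUBA1B and TUBA1C stands with the other alternatives at the end.

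Of 7 beta tubulins, 6 lay above 0, 4 of them by more than the SD between spots, where 46.9% of all detected names lay above 0. None passed the threshold. TUBB4B, the isotype of cilia and flagella, named after its values were seen, read 7.56 in crossbred and 7.05 in Zebu testis. The difference was 0.51, the spots of this probe gave 0.48 and 0.53, and the other 3 probes gave 0.45, 0.79 and 0.83. TUBB read 4.41 and 3.73, a difference of 0.68. A further probe of TUBB gave 0.62, and the one nearest the 3′ end, at base 1619, gave -0.47. Both TUBB probes above 0 have a close copy among the probes of TUBB4B. The probe at base 1619, the one below 0, is in no such pair. TUBB4A differed by 1.01 at base 212, by -0.31 at base 236 and by 0.05 at base 1919. The probes at bases 212 and 236 overlap in the transcript and gave opposite signs. The one at base 236 read -5.71 in crossbred and -5.40 in Zebu testis, and its difference was within the SD between spots. The dimmest signals well above background were -5.78 and -5.94 on these arrays. The probe at base 212 shares 42 of 53 overlapping bases with a probe of TUBB2B. With normexp background correction TUBB4A was at 0.67.

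The smallest differences of the class were also among beta tubulins. TUBB3, a neuronal isotype, read -0.07 in crossbred and -0.18 in Zebu testis, a difference of 0.11. TUBB2B read 4.24 and 4.06, a difference of 0.18, with 0.08, 0.66 and 0.69 in the other probes. TUBB6 read 0.04 and 0.35, a difference of -0.31. These 3 lay within the SD between spots. TUBB1, the isotype of platelets, differed by 0.49 on the brighter of its probes, and the other probe was not well above background on either array. Among platelet markers, PF4 and PPBP were also not well above background on either array. The TUBB1 probe that was detected shares 41 of 55 overlapping bases with a probe of TUBB.

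**Figure D2:**
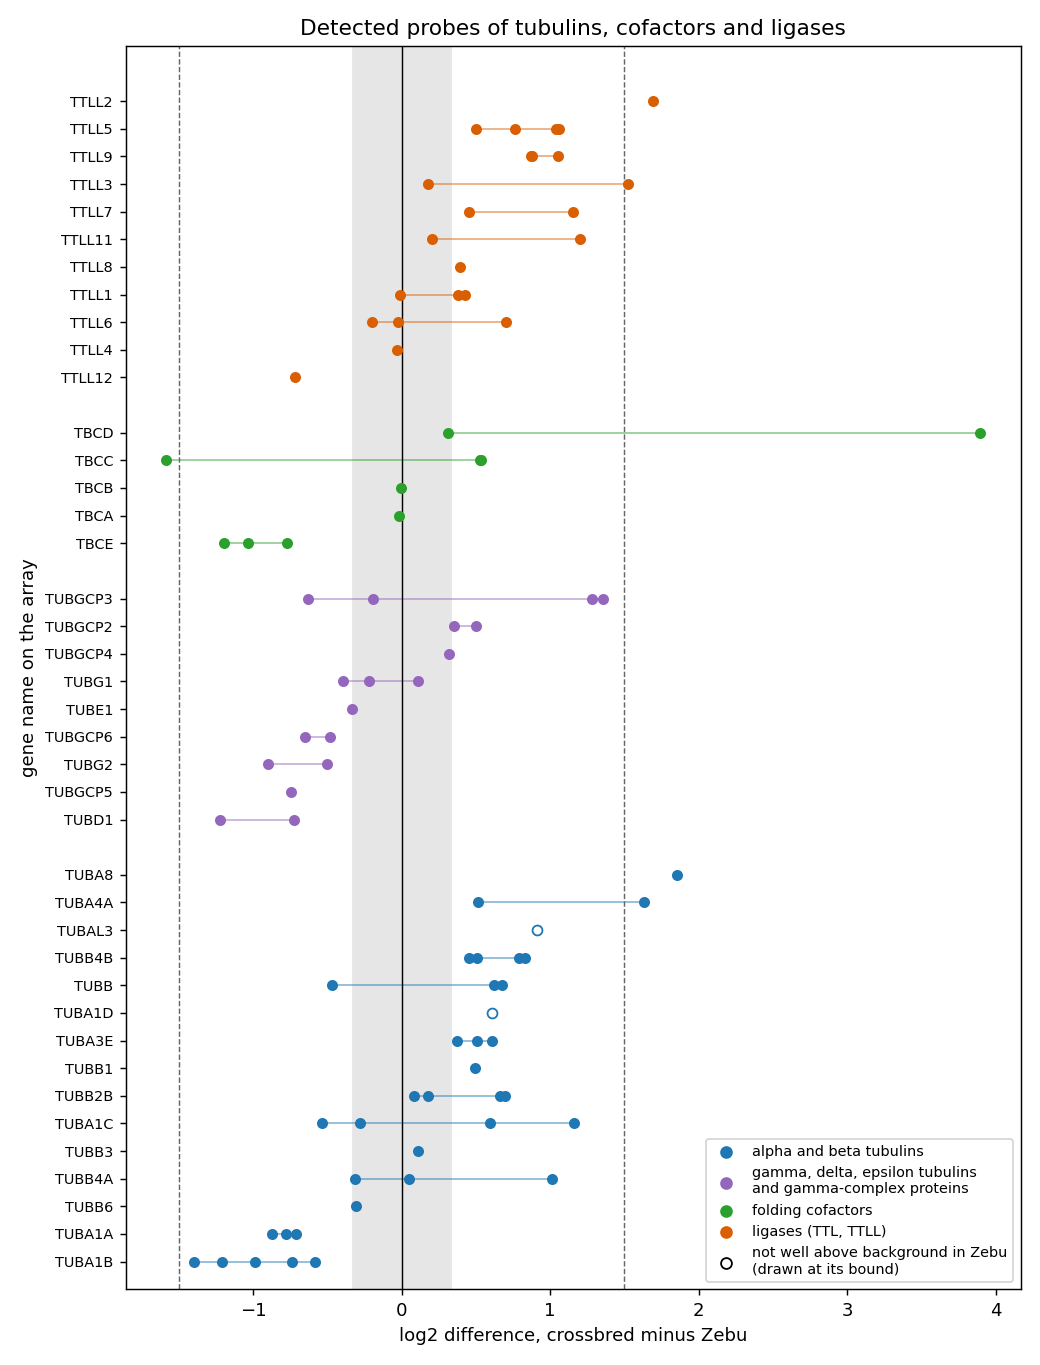
Difference (log2, crossbred minus Zebu) of each of the 88 detected probes, 1 row per gene, coloured by class. The grey band is the SD between spots of 0.33 on each side of 0, and the dashed lines mark 1.5 in size. Probes of TUBA1A and TUBA1B all lie left of 0 and those of TUBB4B, TTLL5 and TTLL9 all lie right of it, while TBCC, TUBA1C and TUBGCP3 span both sides.

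None of the 9 gamma, delta and epsilon tubulins and gamma-complex proteins passed the threshold in either direction. Of these, 7 lay below 0 and 6 were below it by more than the SD between spots, against 33.9% of all detected names. TUBE1 was below it by hardly more than that SD. The lowest was TUBD1, delta tubulin, at -0.76 in crossbred and 0.47 in Zebu testis. Its difference was -1.22, and its other probe gave -0.73. TUBG2, the second gamma tubulin, read 2.53 and 3.43, a difference of -0.90, with -0.94 and -0.87 in its spots and -0.51 in its other probe. TUBD1 and TUBG2 are also named after their values were seen.

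TUBG1, the main gamma tubulin, read 3.22 in crossbred and 3.45 in Zebu testis. The difference of -0.22 was within the SD between spots, and the other probes gave 0.11 and -0.40. TUBE1, epsilon tubulin, read -1.68 and -1.34, a difference of -0.33. TUBGCP4 read -1.18 and -1.5, a difference of 0.32, and its other probe was not well above background on either array. TUBGCP5 and TUBGCP6, which with TUBGCP4 complete the large ring, differed by -0.75 and -0.66. TUBGCP2, of the core of the complex, differed by 0.50 and 0.35 in its probes.

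TUBGCP3, the partner of TUBGCP2 in that core, gave both directions along its transcript. The probes at bases 363 and 1713 differed by 1.36 and 1.28. The probe at base 2668 differed by -0.19 and the one at base 3571 by -0.64. The last is the brightest, at 0.50 in crossbred and 1.14 in Zebu testis, and it stands for the gene in the counts. The probe at base 363 read -2.05 and -3.41, and the one at base 1713 read -1.46 and -2.74. The median of the class thus takes in a gene whose sign depends on the probe, and with the mean of all detected probes of each gene that median was -0.33.

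Folding cofactors held both the largest difference of the system and the smallest. TBCD, which takes beta tubulin into the pairing complex, read 0.25 in crossbred and -3.65 in Zebu testis. The difference was 3.89, or 14.9-fold, from 1 spot per array well above background on both. The other TBCD probe read -1.12 and -1.44, and its difference of 0.31 was within the SD between spots. That probe was the brighter in Zebu testis, and it stands for the gene if the highest mean log2 signal decides, so the call rests on the choice of probe. Both probes span exon junctions, as their places in the genome are longer than 60 bases. They are printed because the call rests on which of them is read, with the probe of the large difference first.
TBCD at base 2224, chr19:51259888-51262578, minus strand: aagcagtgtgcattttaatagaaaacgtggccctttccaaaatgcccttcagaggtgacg
TBCD at base 3554, chr19:51240738-51241726, minus strand: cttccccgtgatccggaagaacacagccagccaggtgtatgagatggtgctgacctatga

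TBCA and TBCB, which hold new beta and alpha tubulin, lay at 0 within the SD between spots. TBCA read 3.76 in crossbred and 3.77 in Zebu testis, a difference of -0.02. TBCB read 4.05 in both, a difference of -0.00. TBCC, which completes the pairing, read 0.37 and -0.16 on its brightest probe, a difference of 0.53, and the probe at base 802 also gave 0.53. Its remaining probe, at base 2245, read -4.09 in crossbred and -2.50 in Zebu testis, a difference of -1.59. This was the only probe of the 88 past the threshold in the lower direction, where 2.99% of all detected probes were. TBCE, which takes alpha tubulin into the complex, differed by -1.04, -0.77 and -1.20 in its probes. The first of these starts at base 1831 and the second at base 1830, so they are not separate readings of the transcript.

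**Figure D3:**
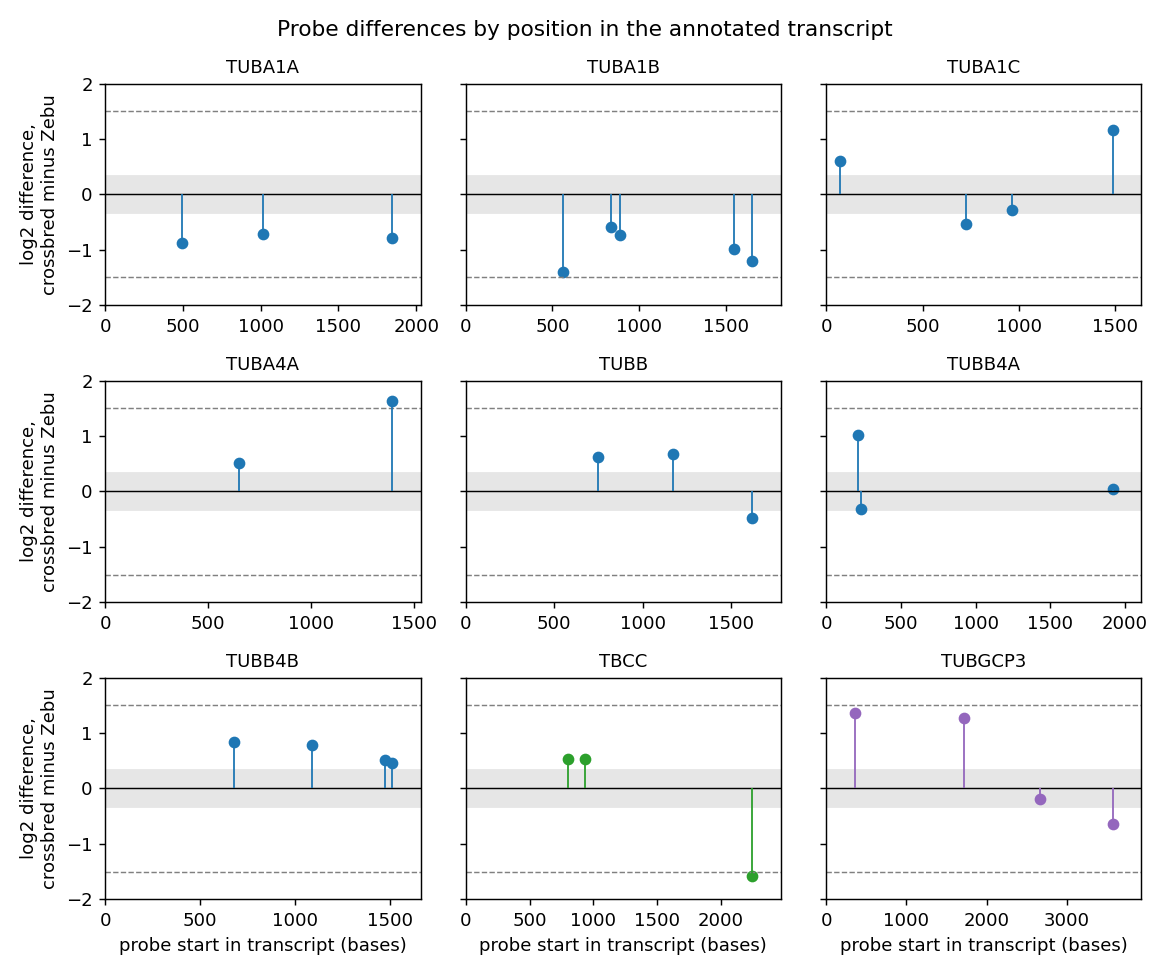
Difference (log2, crossbred minus Zebu) of each detected probe against its start in the annotated transcript, in bases, for 9 genes with several probes. The grey band is the SD between spots of 0.33 and the dashed lines mark 1.5 in size. TUBA1A, TUBA1B and TUBB4B keep 1 sign along the transcript, and TUBA1C, TUBB, TUBB4A, TBCC and TUBGCP3 do not.

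Among the 25 genes with several detected probes, all probes lay on 1 side of 0 for 17, 11 higher and 6 lower. This is 68%, against 66.1% of all 8959 gene names with several detected probes. The probes of a gene in this system were therefore about as often of 1 sign as those of other genes. Probes that overlap in the transcript, such as those of TBCE, enter this count singly. TBCC, TUBA1C and TUBGCP3 were the 3 genes with probes beyond 0.5 on both sides, as were 5.5% of those 8959 names. Counted by probe, 6 of 88 were higher at the threshold, where 6.14% of all detected probes were.

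Of the 11 ligases detected, TTLL2 and TTLL3 passed the threshold, both higher in crossbred testis. In all, 8 lay above 0, all by more than the SD between spots, against 30.1% of all detected names. By probe, 18 of 23 detected were above 0, and the share of all probes above 0 was not counted. TTL itself was not well above background on either array in either of its probes, so no fold is given for it. TTLL2, one of the less studied members, read 2.07 in crossbred and 0.38 in Zebu testis. The difference was 1.69 or 3.23-fold, from 1 probe. TTLL3, a glycine ligase of cilia and flagella, read 3.70 and 2.17, a difference of 1.53, just past the threshold. Its spots gave 1.43 and 1.62, on either side of it, and its other probe gave 0.17. With the mean of both probes TTLL3 was at 0.85, short of the threshold. TTLL8, the other glycine ligase measured and named after its values were seen, read -5.23 and -5.62, a difference of 0.39. Both signals were dim, and with normexp background correction TTLL8 was at 0.11, within the SD between spots.

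The glutamate ligases ran from no difference to just over 1. TTLL5, needed for the sperm tail in mice, read 2.03 in crossbred and 1.27 in Zebu testis, a difference of 0.76, with 0.50, 1.04 and 1.06 in its other probes. TTLL9, which also acts on the sperm tail, read 1.93 and 0.87, a difference of 1.05, with 0.87 and 0.88 in the others. The TTLL9 probes overlap over most of their length and are not separate readings of the transcript. TTLL7 differed by 1.15 and 0.45, and TTLL11 by 1.20 and 0.20. These genes are named after their values were seen, and none passed the threshold. With normexp background correction TTLL11 was at 0.64.

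TTLL1, the catalytic subunit of a glutamate ligase complex, read 2.32 in crossbred and 1.94 in Zebu testis. Its difference was 0.38, with 0.42 and -0.01 in the other probes. TTLL4 read 3.06 and 3.097, a difference of -0.03. TTLL6 read -4.20 and -4.18, a difference of -0.03, and its other probes gave 0.70 and -0.20. The spots of the last gave -0.73 and 0.33, the widest split among the 10 probes of the list with 2 spots. TTLL12, also named after its values were seen, is among the ligases here by name alone. It was the only gene of the class below 0 by more than the SD between spots. TTLL12 read 4.34 in crossbred and 5.05 in Zebu testis, with a difference of -0.72 and -0.71 in its 2 spots.

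Other microtubule genes were taken from a list of proteins that remove or add other tubulin marks, fold tubulin, recruit gamma tubulin, sever microtubules or bind them. Of 76 detected, 6 were higher and 2 lower, close to the 7.25% and 2.98% of all detected names. Their median was 0.19, with 45 above 0. VASH2, which with a partner removes the last tyrosine that TTL puts back, read 0.71 in crossbred and -1.85 in Zebu testis. Its difference was 2.56, and its other 2 probes gave 1.04 and 1.95. VASH1, the related enzyme, was not well above background in crossbred testis. The partners of TTLL1 in its complex differed by -0.07 for TPGS1, 0.48 for TPGS2, 0.50 for NICN1 and 0.20 for LRRC49. All 4 lay nearer to 0 than the threshold, as TTLL1 did.

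The remaining 5 higher genes were HAUS2, MAPT, CLIP1, TPPP2 and MAP6. HAUS2, of the complex that brings gamma tubulin to existing microtubules, read 2.75 and 1.16, a difference of 1.59, and its other 2 probes gave -0.02 and -0.14. MAPT, a microtubule-binding protein best known from neurons, read 3.62 and 1.74, a difference of 1.88, with 1.44 to 1.93 in 3 other probes. CLIP1, a plus-end protein, read 0.20 and -1.93, a difference of 2.13, with -0.54 to 1.04 in 3 other probes. TPPP2, a testis relative of the tubulin polymerization-promoting protein, read 2.36 and 0.03, a difference of 2.33, from 1 probe. MAP6, a microtubule stabilizer, was not well above background in Zebu testis and was at least 24.97-fold higher in crossbred testis, from 1 spot.

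Both lower genes lay in the dark patch of the crossbred array. CCT6B, a testis form of a chaperonin subunit, read 1.94 and 4.11, a difference of -2.18, and the spots around it had a median of -3.39. Its other probe, which lay in the bright patch, gave -2.07. ATAT1, which acetylates alpha tubulin, was not well above background in crossbred testis and at least 2.96-fold lower there, where the spots around it had a median of -7.01. Without the spots in the patches, none of these genes was lower, since CCT6B and ATAT1 were then left with no detected probe. The other subunits of the chaperonin, TCP1 and CCT2 to CCT8, lay between -0.52 and 0.32.

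Markers of the cells in the testis differed between the arrays as well. All 10 spermatid markers were higher in crossbred testis, 7 past the threshold, with a median of 1.81. Their summed signal, in multiples of the 75th percentile, was 601 in crossbred and 296 in Zebu testis. All 6 spermatocyte markers measured were above 0, with a median of 0.40. The medians were -0.89 for 7 spermatogonium markers, of which 1 was above 0, and -0.90, -0.79 and -0.77 for 7 Sertoli, 6 Leydig and 6 peritubular and smooth muscle markers, of which none was. The summed signals of these 4 lists were 27.3 and 41.0, 32.5 and 53.2, 87.8 and 133, and 39.9 and 68.8 in crossbred and Zebu testis. INHBB, a Sertoli marker, was not well above background on either array. In pooled tissue RNA, fewer cells of a type and less RNA per cell cannot be told apart, and the part of these markers in the differences of the tubulin system was not tested.

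**Figure D4:**
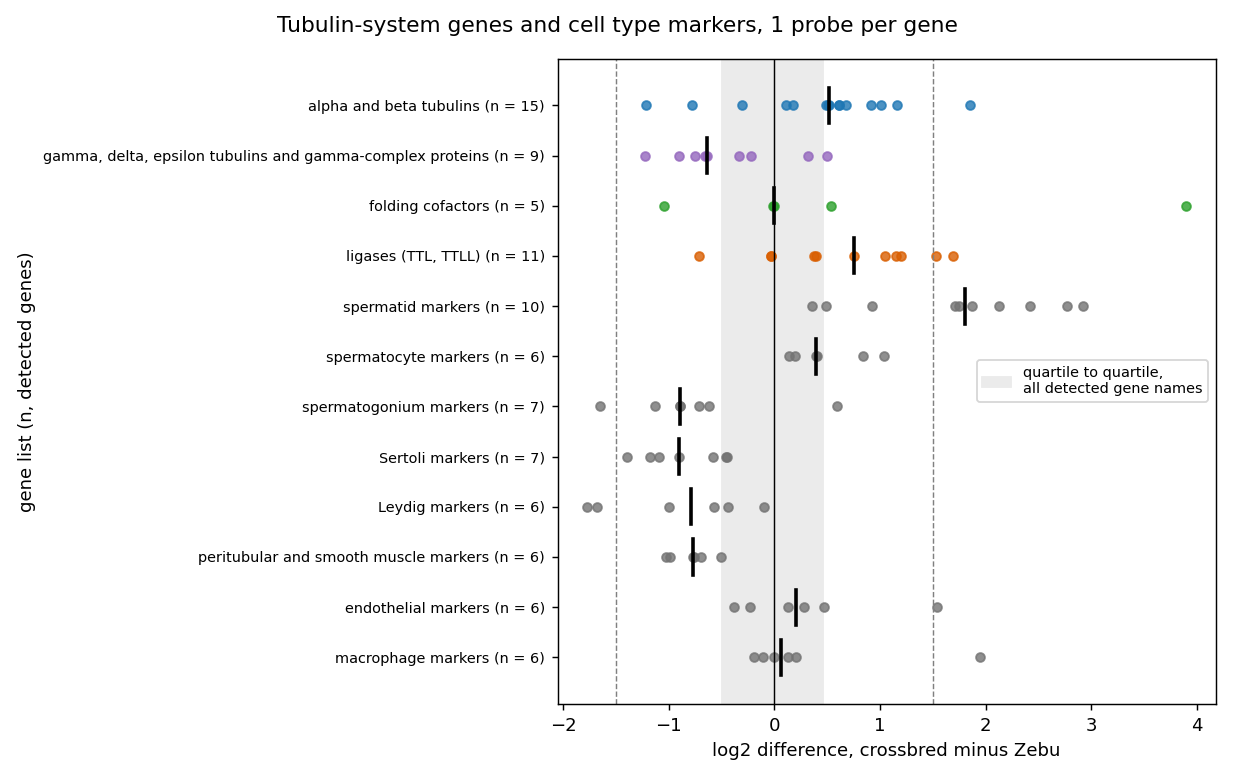
Difference (log2, crossbred minus Zebu) of each detected gene in the 4 classes of the tubulin system and in 8 lists of cell type markers, 1 point per gene, with the median as a black bar. The grey band runs from the lower to the upper quartile of all detected gene names, -0.49 to 0.46, and the dashed lines mark 1.5 in size. Spermatid markers, with a median of 1.81, lie farther right than any class of the tubulin system, and the lists of Sertoli, Leydig and peritubular markers lie left of 0 throughout.

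Neurons and multiciliated cells express some of the isotypes read here. The 6 neuron markers measured ran from -2.50 to 2.10 with a median of 0.18. The highest was ELAVL4, a bound from a spot in the bright patch, where the spots around it had a median of 1.22, and its other detected probe gave -0.35. The 2 markers of multiciliated cells measured, FOXJ1 and CDC20B, read between -5.75 and -4.81 on both arrays. Endothelial and macrophage markers had medians of 0.21 and 0.06. In each list 1 gene passed the threshold, CLDN5 at 1.54 and AIF1 at 1.95, and 2 genes lay below 0. The other probes of CLDN5 gave 0.98 and 1.33, short of the threshold. Of the red blood cell markers, HBA differed by -2.15, and HBB, ALAS2 and SLC4A1 were not well above background on either array.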

How the data were processed

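Testis RNA, pooled by group, was measured on 2 one-colour bovine arrays that carry the same scan time. The authors deposited the processed intensity of each spot, from which, per the file headers, Agilent Feature Extraction 11.5.1.1 had removed background and spatial trend, with a surrogate at the noise floor. They also deposited the mean and local background intensities and log2 values, which the authors made with a 75th percentile shift. Here 13 spots with outlier marks were left out. Processed intensities were turned into log2 values, spots of the same probe were averaged, and each array's 75th percentile over non-control probes was taken off. The probe with the highest mean signal stood for a gene. A signal not well above background was raised to the lowest one on its array that was, so its fold is a lower bound. Levels of different probes were compared only in choosing the probe of a gene. Summed signals of marker lists weigh bright probes most. No spot was saturated.

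The members and lists were chosen with earlier results of these data known. Both signals are given for genes with a probe at 1.5 or more in size, genes with probes beyond 0.5 on both sides, and the 3 smallest differences of each class, and every other gene was named after its values were seen. All 41 names are RefSeq symbols in the ARS-UCD2.0 table, and the accessions of 75 probes matched it, none under another symbol. Some sequences are not reported here. The steps were tested on simulated data. Python 3.11.15, numpy 2.4.6, pandas 2.3.3, scipy 1.17.1 and matplotlib 3.10.9 were used, and R 4.3.3 with limma 3.58.1 gave the normexp alternative.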

Additional observations from a re-analysis of the deposited data

How the results depend on the processing

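The class medians moved by less than the SD between spots under every alternative that was run. These were normexp (offset 50), quantile normalization, a median shift, a percentile of bright probes only, the authors' log2 values, the log2 of the mean signal, outlier spots kept, the patches left out, other filters and other probe rules. No scaling moved the median of all genes by over 0.1. With the mean of all detected probes, 3 genes of the tubulin system were higher, TBCD, TUBA8 and TTLL2, and TBCC and TUBGCP3 changed sign. The share of all names was not counted for that mean. TTLL3 was lost there by its other probe, and TUBA1D because dim signals enter that mean at their bound. A threshold of 1 gave 10 higher and 3 lower, against 12.9% and 8.92% of all detected names. A linear 1.5-fold gave 14 higher and 9 lower, against 21.5% and 22.3%. A threshold of 2 gave 1 higher, TBCD. Without the filter on dim probes 1 was lower, which was TTL. The share of all names was not counted for either setting. Of the 76 other microtubule genes, a linear 1.5-fold gave 17 higher and 10 lower, against 21.5% and 22.3% of all detected names. At the threshold of 1.5, lower ones numbered 1 with only probes well above background on both arrays, against 1.75% of all such names. They numbered 1 with normexp and 0 without the patches, where the share of all names was not counted.

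The alternatives given next were chosen after seeing the data. Every detected probe counted on its own gave 1 lower, against 2.99% of all detected probes. Without TUBA1A, TUBA1B and TUBA1C the median of the alpha and beta tubulins was 0.56. With the probe of highest mean log2 signal, TBCD was read from its other probe, at 0.31. No paired analysis was possible because each group had 1 array. Outside the spots above background, signals give bounds only, and no alternative stands in for a replicate array.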
